A study of Mus musculus with 2 samples.

Results

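Wfdc17, Wfdc21 and Slpi, 3 genes for small secreted proteins of the whey acidic protein (WAP) type, were followed through the cells sorted as osteal macrophages (Omacs), the macrophages that lie on bone surfaces. The genes were taken by symbol from the table of 32285 genes, in which all 3 were present. They were chosen by their measured levels in these same barcodes, which had been seen to differ between conditions and neutrophil stages. Their levels by condition and stage are therefore given as a description without a test. The cells came from 2 pools of female BALB/c mice, 1 ovariectomized (OVX) and 1 sham-operated, with 20 mice per pool that were operated on at 10 weeks of age and killed 4 weeks later. OVX removes the ovaries and is used as a model of bone loss after the menopause. Both pools were sorted from femurs and vertebrae through CD11b, F4/80 and CD68, were each marked with a hashtag antibody (OVX carried hashtag 1 and sham hashtag 2) and were then captured in a single droplet run. With 1 pool per condition there is no replicate, so that a difference between OVX and sham cannot be told apart from a difference between these pools. All intervals below are at 95% and cover counting error only.

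The WAP domain is a short, disulfide-bonded fold rich in cysteine that is shared by a family of secreted inhibitors and antimicrobial proteins. Slpi, the secretory leukocyte protease inhibitor, carries a pair of such domains and blocks neutrophil elastase and cathepsin G, the serine proteases that neutrophils store in their granules. Wfdc17 is known from activated macrophages and microglia, and Wfdc21 from neutrophils and other myeloid cells. Neutrophils mature in the bone marrow from proliferating precursors, through a stage in which the secondary granule proteins such as Ngp, Camp and Ltf are made, to the segmented cell that carries Cxcr2 and Csf3r.

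Wfdc17 (ENSMUSG00000069792) lies at chr11:83703991-83706268 on the + strand of GRCm38 in the GENCODE annotation, and Wfdc21 (ENSMUSG00000051748) at chr11:83746940-83752642 on the same strand, 40671 bases further on. Slpi (ENSMUSG00000017002) is on another chromosome, at chr2:164354070-164389095 on the - strand. The coding sequences of the longest complete transcript of each gene, read from the GENCODE transcripts, are shown because they give what the 3 genes share and how far reads of one could be taken for another; in-frame cysteine codons (TGT or TGC) are in capitals, and of Slpi the last 300 of 396 bases are given.
Wfdc17: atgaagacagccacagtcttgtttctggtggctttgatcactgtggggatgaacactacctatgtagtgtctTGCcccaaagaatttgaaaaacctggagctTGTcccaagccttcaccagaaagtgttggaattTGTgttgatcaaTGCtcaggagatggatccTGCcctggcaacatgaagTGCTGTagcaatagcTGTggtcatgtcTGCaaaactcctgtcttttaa
Wfdc21: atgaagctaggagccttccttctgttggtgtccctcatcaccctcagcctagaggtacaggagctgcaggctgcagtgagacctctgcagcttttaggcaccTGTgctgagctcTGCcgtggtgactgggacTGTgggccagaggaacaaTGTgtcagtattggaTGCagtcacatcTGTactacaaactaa
Slpi: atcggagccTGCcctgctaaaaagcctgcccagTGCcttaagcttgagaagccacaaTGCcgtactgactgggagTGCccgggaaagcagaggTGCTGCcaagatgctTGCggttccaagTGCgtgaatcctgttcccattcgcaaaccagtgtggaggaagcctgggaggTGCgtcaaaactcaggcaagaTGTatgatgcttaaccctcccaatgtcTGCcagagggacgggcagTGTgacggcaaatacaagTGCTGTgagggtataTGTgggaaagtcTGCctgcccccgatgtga
The Wfdc17 frame has 76 codons before the stop, of which 9 encode cysteine. Wfdc21 is shorter, with 6 cysteine codons among 63, and Slpi has 17 among 131. A global alignment of the coding sequences gave 51.9% identity between Wfdc17 and Wfdc21, 47.7% between Wfdc17 and Slpi and 42.3% between Wfdc21 and Slpi, and the longest run of bases shared by any pair of their transcripts was 10. The nearest relative of Wfdc17 is its neighbour Wfdc18, at 79.7% identity of coding sequence and with a shared run of 30 bases. Wfdc18 had 13 UMIs in the whole library against 5547 for Wfdc17.

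The library held 2349 barcodes and 17681092 gene UMIs (unique molecular identifiers, which count each captured RNA molecule once), with a median of 4387 UMIs per barcode. Hashtag counts placed 1059 barcodes with OVX (median 4812 UMIs) and 981 with sham (median 3704), while 78 were above the cutoff for both hashtags and 231 for neither. Clustering without the 3 genes gave 12 clusters. Although the cells had been sorted as macrophages, 9 clusters with 86.0% of all barcodes were neutrophil-like by their markers: S100a9 stood at 150927 and Cxcr2 at 1528 CPM there (counts per 1000000, the UMIs of a gene in every 1000000 gene UMIs of a group), while the macrophage genes Adgre1 (F4/80) and Csf1r stood at 2.42 and 7.69. Cd68, whose protein was also used in the sort, stood higher, at 61.1. It was the 1 of 13 listed macrophage genes to reach 50 CPM in neutrophil-like barcodes. Of the neutrophil-like clusters, 1 was proliferating (119 barcodes, led by Hist1h3c and Top2a), 1 was granule-rich (196 barcodes, with Ngp, Camp and Ltf among its leading genes) and the other 7 were called mature (1705 barcodes). The mature class is a remainder: it took the clusters that met the rule of no other class, and no threshold on mature markers was set. Mature clusters 3 and 4 had 0 listed markers of any type among their 10 leading genes. Over the class the 15 listed mature markers summed to 29770 CPM, against 9155 in the granule-rich and 4293 in the proliferating cluster. The mature clusters were not filled alike by the pools. Mature cluster 3, which Ccl3 and Wfdc17 led, held 227 OVX and 19 sham barcodes, mature cluster 6 held 135 and 20, mature cluster 2 held 66 and 209, and mature cluster 5 held 39 and 133. Of the remaining clusters, 1 was stromal-like (210 barcodes, led by Prg4). Another was led by Pf4, Ppbp and Arg1 (80 barcodes). It kept no cell type name because its leading genes held more megakaryocyte than macrophage markers (2 against 1). The summed lists did not share that order. In this cluster the 13 listed macrophage genes summed to 5239 CPM, with 5 at 50 CPM or more and 3 at 0. The 5 listed megakaryocyte genes summed to 4196 CPM, with 2 at 50 CPM or more and 3 at 0. The last cluster, of 39 barcodes with few UMIs, a median of 80.2% of them mitochondrial, was left unnamed.

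Summed over both pools, all 3 genes were at their highest neutrophil level in the mature stage, and the rise was steepest for Wfdc17. Over all barcodes, Wfdc17 stood at 54.3 CPM in proliferating, 45.3 in granule-rich and 634 in mature barcodes. The mature level summed over pools was 14.0 times that of the granule-rich stage (11.1 to 18.0), while the granule-rich and proliferating levels could not be told apart at this depth, with a ratio of 0.833 (0.597 to 1.16). Of all Wfdc17 UMIs in the library, 93.0% were in mature barcodes. Wfdc21 was already present in the early stages, at 1032 CPM in proliferating and 1172 in granule-rich barcodes, and reached 2738 in mature ones. For Slpi the levels were 165, 215 and 445, with a mature level 2.06 times that of the granule-rich stage (1.85 to 2.31). The pooled Wfdc17 step of 14.0 exceeded the step within either pool, which was 7.80 in OVX and 3.79 in sham, and the pools filled the stages unequally. With 1000 variable genes in the clustering the pooled step was 2.81 (2.33 to 3.40).

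**Figure D1:**
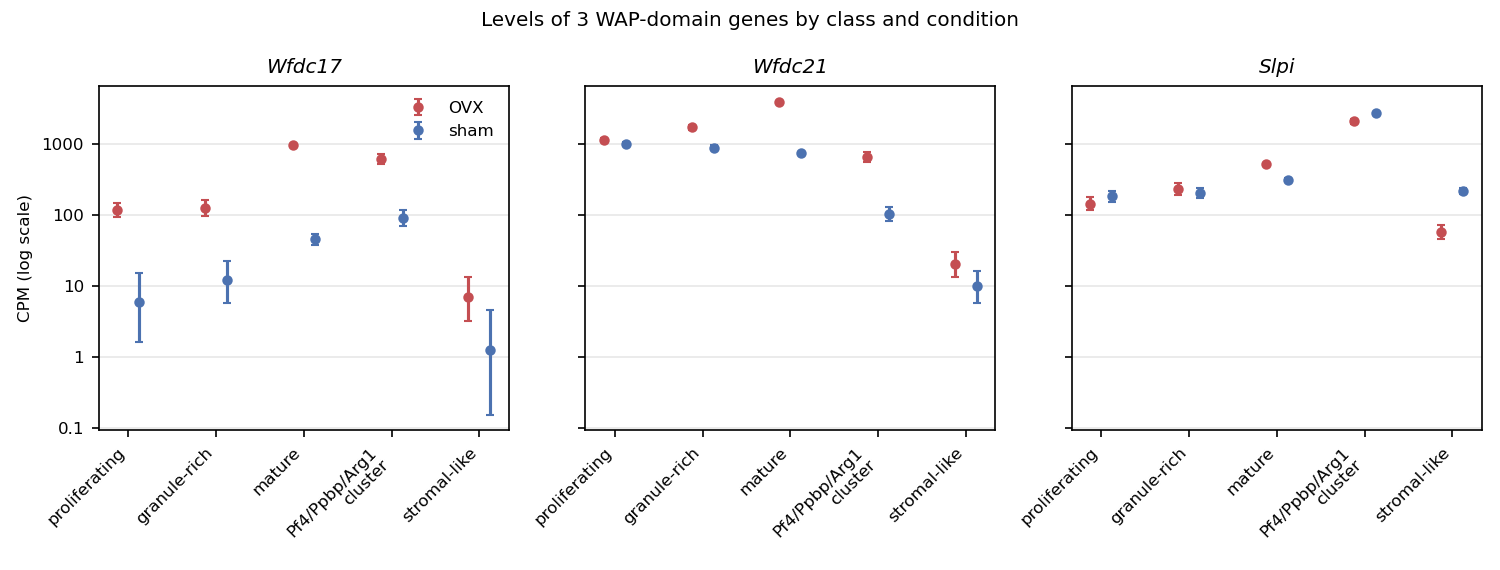
CPM of Wfdc17, Wfdc21 and Slpi (log axis) in the 3 neutrophil stages, the Pf4, Ppbp and Arg1 cluster and stromal-like barcodes, with OVX in red and sham in blue; bars are exact Poisson intervals. Wfdc17 is higher in OVX in every class, with overlapping intervals in the stromal-like one, Wfdc21 differs most, among the neutrophil stages, in the mature one, and Slpi is highest in the Pf4, Ppbp and Arg1 cluster in both pools.

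In neutrophil-like barcodes all 3 genes were higher in the OVX pool, by very different amounts. Wfdc17 stood at 812 CPM in OVX (790 to 835) and at 32.1 in sham (26.9 to 38.0), a ratio of 25.3 (21.3 to 30.3). Of the 1281 genes that reached 100 CPM in at least 1 of the pools, as Wfdc17 did in OVX alone, none had a higher ratio. Wfdc21 stood at 3417 in OVX and 813 in sham, a ratio of 4.20 (4.05 to 4.36), which ranked 5th of 1281. Slpi stood at 460 in OVX and 265 in sham, with a ratio of 1.74 (1.62 to 1.86) and rank 43. So 2 of the 3 genes were at 2-fold or more over sham, where 2.42% of all ranked genes were. The median log2 ratio of those genes was -0.08. Over all barcodes of a pool the direction for Slpi depended on the weighting. Its summed level was lower in OVX (443 against 515 CPM, ratio 0.860, 0.820 to 0.902), whereas the ratio with each barcode weighted equally was 1.07 and thinned detection was 30.9% in OVX and 21.5% in sham. In sham 56.6% of the Slpi UMIs were in the Pf4, Ppbp and Arg1 cluster against 14.8% in OVX. Wfdc17 and Wfdc21 stayed above 2-fold over all barcodes, where 1.92% of 1456 ranked genes did. There too Wfdc17 reached 100 CPM in OVX alone (669 against 30.6 in sham).

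Split by stage, the OVX to sham ratio of summed Wfdc17 UMIs was above 1 beyond counting error in each stage. That error takes no account of the clumping of UMIs in single barcodes. The ratio of Wfdc21 grew towards the mature stage, and that of Slpi was above 1 beyond counting error in the mature stage alone. In mature barcodes Wfdc17 stood at 966 in OVX and 45.3 in sham (ratio 21.3, 17.8 to 25.8), in granule-rich ones at 124 and 12.0 and in proliferating ones at 116 and 5.86. The early stages rested on few molecules. In sham, 10 granule-rich and 4 proliferating UMIs of Wfdc17 were counted, and in OVX 5 barcodes held 97.4% of the 76 proliferating UMIs and 1 barcode held 33 of the 60 granule-rich UMIs. The Wfdc17 ratios of 10.4 in the granule-rich and 19.9 in the proliferating stage were 4.83 and 13.8 with each barcode weighted equally. Proliferating barcodes with a Wfdc17 UMI were 12.7% in OVX (5.27% to 24.5%) and 5.88% in sham (1.23% to 16.2%), with overlapping intervals. Granule-rich shares were 22.4% (12.5% to 35.3%) and 5.83% (2.17% to 12.2%), without overlap. After thinning of barcodes to equal depth they were 7.27% (2.02% to 17.6%) and 1.01% (0.0256% to 5.50%), with overlap. Thinned proliferating counts were 2 of 54 OVX and 0 of 50 sham barcodes. Wfdc21 stood at 3874 in OVX and 743 in sham mature barcodes (ratio 5.21, 4.98 to 5.46), at 1699 and 884 in the granule-rich stage (1.92, 1.74 to 2.13) and at 1126 and 994 in the proliferating stage (1.13, 1.02 to 1.26). Equal weights gave 1.48 and 1.01 for the last 2 ratios. Slpi stood at 523 and 307 in mature barcodes (1.70, 1.57 to 1.84). Its granule-rich ratio was 1.13 (0.885 to 1.45), or 0.863 with equal weights, and its proliferating ratio 0.793 (0.600 to 1.04), neither of which could be told from 1 at this depth. In the mature stage 2 of the 3 genes passed 2-fold, against 2.96% of 1282 ranked genes. In the granule-rich stage Wfdc17 alone did, against 1.18%, and in the proliferating stage also Wfdc17 alone, against 1.52%. In each stage Wfdc17 reached the 100 CPM needed for ranking in OVX alone. The 3 genes had been chosen by such differences, so these shares are background and no support.

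In summed levels the order of the stages for Wfdc21 therefore ran in opposite directions in the 2 pools. In OVX the mature level was 2.28 times the granule-rich level (2.13 to 2.45) and 3.44 times the proliferating level (3.20 to 3.71). In sham the mature level was 0.840 times the granule-rich level (0.772 to 0.916) and 0.747 times the proliferating level (0.685 to 0.817). Detection after thinning every barcode to 1000 UMIs showed the same picture: 55.6% of proliferating, 58.2% of granule-rich and 76.5% of mature OVX barcodes held a Wfdc21 UMI, against 54.0%, 52.5% and 36.3% in sham. Before thinning these shares were 92.7%, 91.4% and 87.5% in OVX and 94.1%, 88.3% and 54.2% in sham. The stages differed in depth, with median totals of 12569, 7782 and 3100 UMIs in the proliferating, granule-rich and mature sham barcodes. Wfdc17 and Slpi kept the mature stage on top in both pools. The Wfdc17 mature level was 7.80 times the granule-rich one in OVX (6.05 to 10.2) and 3.79 times in sham (1.99 to 8.11), and for Slpi these ratios were 2.28 (1.89 to 2.78) and 1.52 (1.29 to 1.80). Single mature clusters did not all keep the summed order of Wfdc21. It stood at 956, 933, 1100 and 1011 CPM in sham mature clusters 1, 3, 6 and 7, above the granule-rich 884. In sham mature clusters 2, 4 and 5 it stood at 586, 836 and 462. In OVX, mature cluster 5 (914) lay below the granule-rich 1699 and the other mature clusters above it. The pools filled these clusters unequally, and the part of this in the order was not tested. Whether the pools differ in the order of stages has no test, as there is 1 pool of each.

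**Figure D2:**
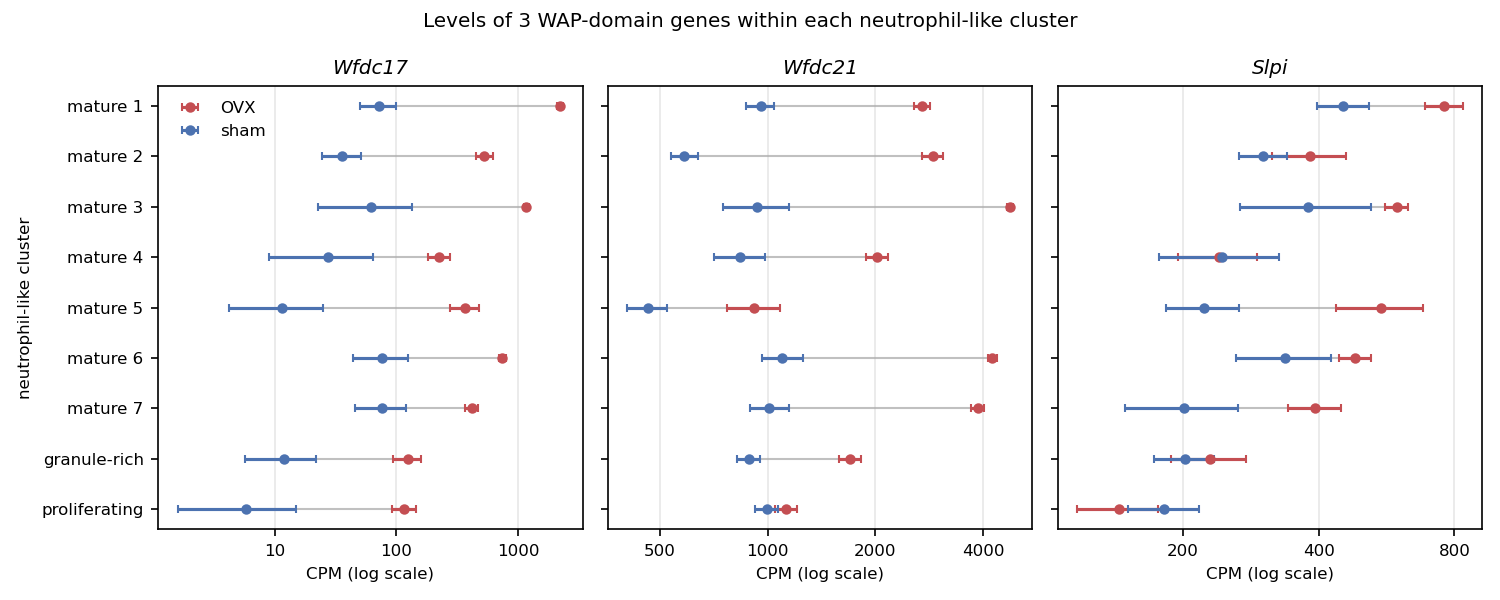
CPM of Wfdc17, Wfdc21 and Slpi (log axes, each panel with its own range) in each of the 9 neutrophil-like clusters, with OVX in red, sham in blue, exact Poisson intervals and a grey line joining the pools. Wfdc17 and Wfdc21 lie further right in OVX in all 9 clusters, whereas Slpi is higher in sham in mature cluster 4 and the proliferating cluster, and its intervals overlap there, in mature cluster 2 and in the granule-rich cluster.

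The difference was present inside single clusters and not only between them. Wfdc17 was higher in OVX in each of the 7 mature clusters, with ratios from 5.44 in mature cluster 7 (3.41 to 9.21) to 31.7 in mature cluster 5 (13.7 to 90.1, on 6 sham UMIs). In mature cluster 5, 1 OVX barcode held 48 of the 55 OVX UMIs of Wfdc17. With each barcode weighted equally the ratio there was 9.97. In mature cluster 1, which held 203 barcodes of each pool, Wfdc17 stood at 2228 CPM in OVX and 71.5 in sham, a ratio of 31.1 (22.4 to 44.7). Wfdc21 was also higher in OVX in all 7, with ratios from 1.98 in mature cluster 5 to 5.10 in mature cluster 3. In mature cluster 1 it stood at 2706 and 956. Slpi ranged from 0.985 in mature cluster 4 (0.684 to 1.44) to 2.47 in mature cluster 5 (1.84 to 3.31), and it stood at 759 and 453 in mature cluster 1. When the 9 clusters were given the same weights in both pools, the ratios over neutrophil-like barcodes were 19.3 for Wfdc17, 3.28 for Wfdc21 and 1.52 for Slpi.

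The 3 genes differed in how their molecules were spread over barcodes. In OVX mature barcodes the median was 0 UMIs for Wfdc17, 10 for Wfdc21 and 1 for Slpi, and the highest counts were 137, 286 and 66. In sham the medians were 0, 1 and 0 and the highest counts 10, 38 and 16. Wfdc17 was thus absent from the counts of many OVX barcodes and high in a minority: 49.3% of the 872 had a UMI, 15.5% had at least 10 and 2.64% had at least 50. Of the 710 sham mature barcodes 7.04% had a Wfdc17 UMI and 1 had 10. For Wfdc21 the shares with at least 10 UMIs were 50.9% in OVX and 8.59% in sham, and for Slpi they were 7.11% and 0.704%. Sham barcodes were shallower, with a median of 3100 UMIs against 4275 in OVX. After thinning to 1000 UMIs, which left out 38 OVX and 73 sham mature barcodes, Wfdc17 was detected in 30.8% and 3.30%, Wfdc21 in 76.5% and 36.3% and Slpi in 34.1% and 22.4%.

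**Figure D3:**
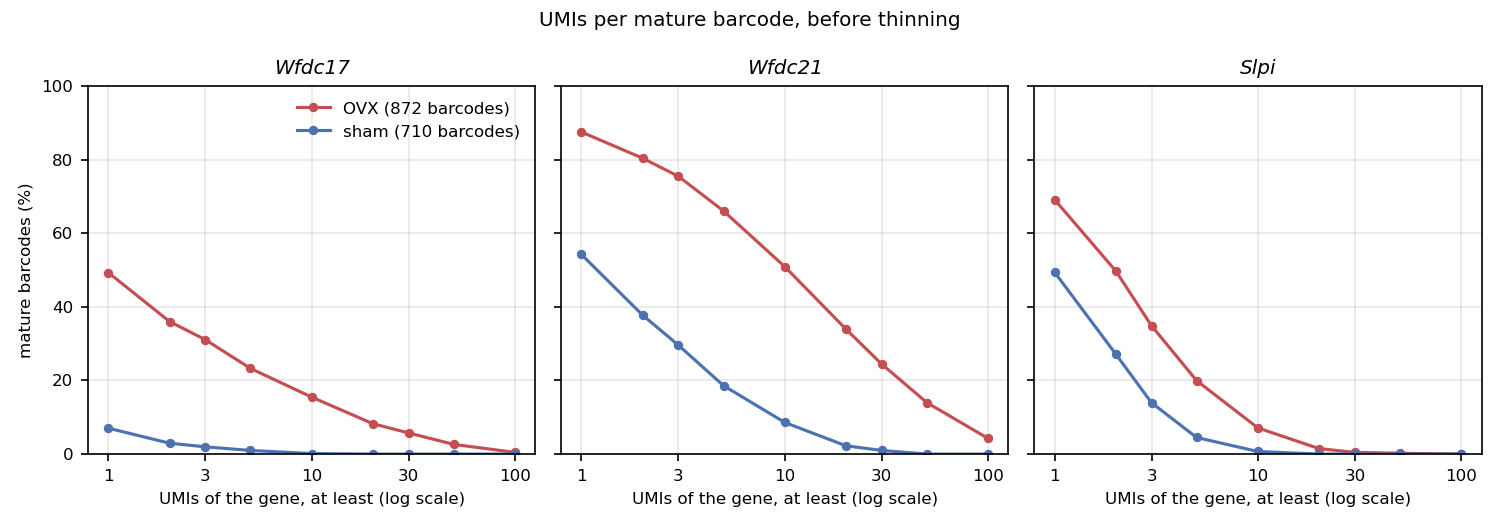
Percent of mature barcodes (872 OVX in red, 710 sham in blue) with at least the number of UMIs on the log axis, for Wfdc17, Wfdc21 and Slpi before thinning. No sham barcode lies beyond 10 UMIs of Wfdc17, while in OVX 2.64% of barcodes have 50 or more; for Wfdc21 the curves are furthest apart near 5 UMIs, at 66.1% and 18.6%.

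The sham Wfdc17 signal was itself uneven. Of the 864 neutrophil-like sham barcodes, 805 had no Wfdc17 UMI, 43 had 1 or 2, and 16 had 3 or more and held 82 of the 133 molecules. Hashtag 1 made up a median of 1.93% of hashtag UMIs in those 16 barcodes and 2.28% in the 805 without Wfdc17. Sham barcodes lie below the hashtag 1 cutoff by definition, so both shares were low by selection and cannot speak to mixed barcodes. The 16 were deep, with a median of 10467 gene UMIs against 3402. Read along the hashtag itself, Wfdc17 stood at 32.2 CPM in the 967 neutrophil-like barcodes with under 10% hashtag 1, at 710 in the 373 with 80% to 90% and at 927 in the 520 with 90% or more. Wfdc21 stood at 808, 2684 and 4045 in the same bins and Slpi at 261, 418 and 501. Barcodes of mixed hashtags were few, and their Wfdc17 levels did not rise steadily with hashtag 1. The 10 barcodes with 10% to 20% hashtag 1 had 66 Wfdc17 UMIs, or 1995 CPM, the highest of all bins. Of these barcodes 30% had a Wfdc17 UMI. From 20% to 80%, in steps of 10%, Wfdc17 stood at 474, 239, 178, 11.6, 11.4 and 353 CPM, on 8 to 83 barcodes each.

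Co-detection was described in mature OVX barcodes after thinning, since deep barcodes show every gene more often. Of 834 such barcodes, 638 held Wfdc21, 284 held Slpi and 257 held Wfdc17. Wfdc17 and Wfdc21 were found together in 217 barcodes, where independent detection at the same shares gives 197, a ratio of 1.10. Wfdc17 was seen in 34.0% of the barcodes with Wfdc21 (30.3% to 37.8%) and in 20.4% of those without it (upper bound 26.7%). Wfdc17 and Slpi were together in 97 barcodes against 87.5 for independent detection (1.11), and Wfdc21 and Slpi in 223 against 217 (1.03). With Slpi, 34.2% of barcodes held Wfdc17 (28.7% to 40.0%), and without Slpi 29.1% did (25.3% to 33.1%). For Wfdc21 these shares were 78.5% (73.3% to 83.2%) and 75.5% (71.6% to 79.0%). In both pairs the intervals overlapped. All 3 were detected in 79 barcodes (9.47%), and none in 13.5%. In sham mature barcodes the pair of Wfdc17 and Wfdc21 was found in 7 of 637 barcodes against 7.62 for independent detection, all 3 in 1 and none in 47.3%. Pooling the conditions gave a ratio of 1.39 for Wfdc17 with Wfdc21, in a set where both genes were higher in the same pool.

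**Figure D4:**
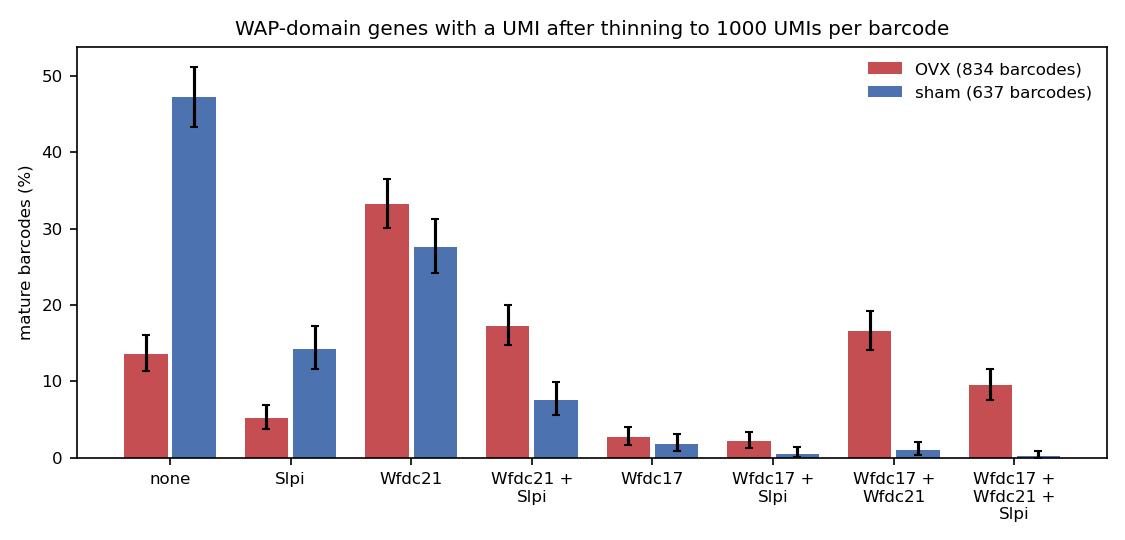
Percent of mature barcodes with each combination of Wfdc17, Wfdc21 and Slpi after thinning to 1000 UMIs, for 834 OVX (red) and 637 sham (blue) barcodes; error bars are Clopper-Pearson intervals. The largest group is Wfdc21 alone in OVX (33.2%) and none of the 3 in sham (47.3%).

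Stromal-like barcodes were used to ask how much of each gene reached barcodes of another cell type. In droplet data free RNA puts molecules of abundant cells into every barcode, so the stromal-like level of 12 neutrophil genes was taken as a yardstick. It ran from 0.653% of the neutrophil-like level for S100a8 to 1.97% for Csf3r, apart from Camp at 28.0%, with a median of 1.07%. Lcn2, which was not in the yardstick, stood at 47.7%. Wfdc17 stood at 3.65 CPM in stromal-like barcodes, 0.769% of its neutrophil-like level (0.469% to 1.19%), and Wfdc21 at 13.5, or 0.589% (0.463% to 0.740%). Both lie at or below the yardstick and are not read as expression. By pool the stromal-like levels were 6.95 CPM in OVX and 1.25 in sham for Wfdc17 (9 and 2 UMIs, ratio 5.57, 1.15 to 53.0) and 20.1 and 9.98 for Wfdc21 (26 and 16 UMIs, ratio 2.01, 1.04 to 4.02). Of the 9 OVX UMIs of Wfdc17, 6 were in 1 barcode. Thinned detection of Wfdc21 went the other way, in 1 of 38 OVX and 3 of 54 sham stromal-like barcodes. The source of these molecules was not tested. Stromal-like barcodes were deep (median 19997 UMIs), and 6.67% of them had a Wfdc17 UMI, which is close to the 6.83% of neutrophil-like sham barcodes at a median of 3454 UMIs. After thinning, Wfdc17 was found in 0 of 198 stromal-like barcodes and in 2.80% of neutrophil-like sham barcodes. A limit of 3 counts for 0 allows a share of up to 1.52% of stromal-like barcodes with a UMI (3 of 198). The Clopper-Pearson upper bound of that share is 1.85%, and neither value sets a limit on expression.

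Slpi stood apart, at 90.6 CPM in stromal-like barcodes (82.8 to 98.9), 24.1% of its neutrophil-like level. That level came from few barcodes. The 5 stromal-like barcodes with the most Slpi held 90.1% of the 496 molecules, and the first of them, a sham barcode with Dcn but no Prg4, held 270 of its 12567 UMIs. Without these 5 the level was 9.52 (7.04 to 12.6), or 2.53% of the neutrophil-like level, far from 24.1%. Csf3r stood at 1.97% (1.58% to 2.44%) with all stromal-like barcodes kept. Because the sets of barcodes differ, these values do not show whether Slpi lay above Csf3r. With the 5 barcodes kept, the OVX to sham ratio of Slpi in stromal-like barcodes was 0.264 (57.2 against 216 CPM). Of 1725 ranked genes 1.28% were at or below 0.5 of sham. Slpi reached the 100 CPM needed for ranking in sham alone, and this share is background and no support. Of the 5 barcodes 3 were sham and 1 was OVX. Without these 5 the levels were 14.1 (8.19 to 22.5) in OVX and 9.76 (5.33 to 16.4) in sham. In the same 5 barcodes S100a8 stood at 477 CPM, against 743 in the other stromal-like barcodes. Arg1 stood at 0 against 2.72, and Lyz2 at 15.4 against 17.7. Pf4 went the other way, at 9.24 against 2.14. The Arg1 and Pf4 levels rest on few UMIs. These sums were weighted towards barcodes of 141565, 84873 and 71798 UMIs, which held 24, 57 and 57 Slpi UMIs. The barcodes with 270 and 39 Slpi UMIs had no Arg1 or Pf4. S100a8 stood there at 557 and 506 CPM, and Lyz2 at 79.6 and 0. Of the stromal-like barcodes 53.3% were above neither hashtag cutoff, so their comparison by condition rested on 38 OVX and 54 sham barcodes.

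**Figure D5:**
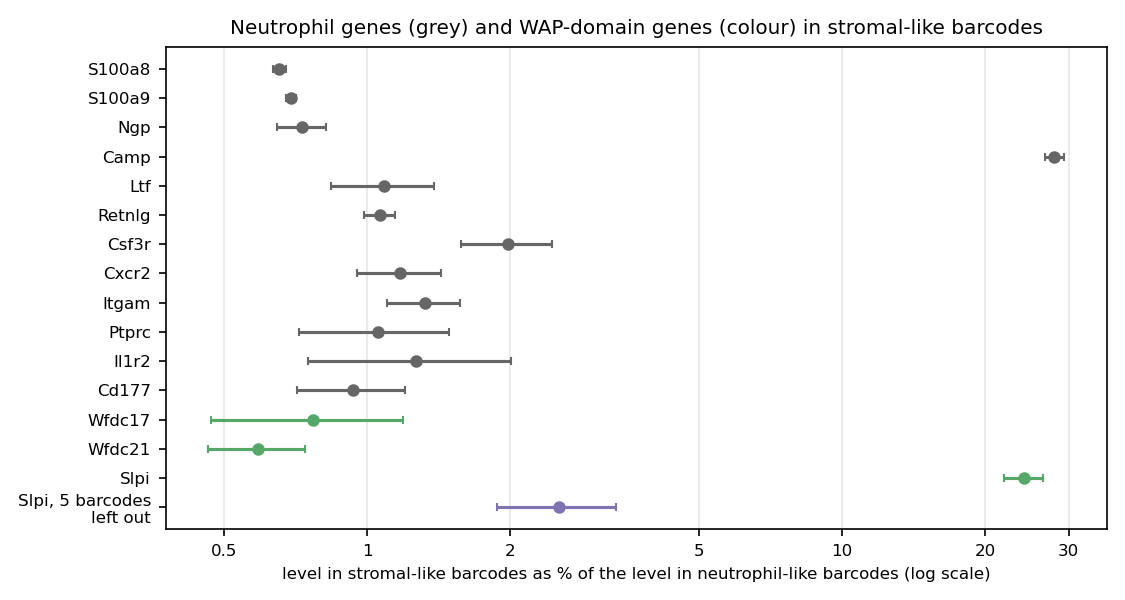
Level of each gene in stromal-like barcodes as a percentage of its level in neutrophil-like barcodes (log axis), for 12 neutrophil genes in grey, Wfdc17, Wfdc21 and Slpi in green, and Slpi without 5 barcodes in purple; bars are exact 95% intervals of the counts. Wfdc17 lies among the grey points near 1%, and Wfdc21 lies just below the lowest of them, with an interval that overlaps it. Slpi lies at 24.1% beside Camp, and it falls to 2.53% when 5 barcodes are left out.

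The highest Slpi level of any class was in the cluster led by Pf4, Ppbp and Arg1, at 2497 CPM, 5.61 times that of mature barcodes (5.33 to 5.91). With 3.41% of the barcodes it held 34.2% of all Slpi molecules. Wfdc21 was far lower there than in mature barcodes (238 against 2738 CPM), by pool at 0.168 of the mature level in OVX and 0.138 in sham. For Wfdc17 the pools differed in direction: its level there was 0.634 of the mature level in OVX (0.536 to 0.746) and 1.98 times it in sham (1.44 to 2.71). By pool, Slpi stood at 2074 in OVX and 2684 in sham (ratio 0.773, 0.699 to 0.852), Wfdc17 at 613 and 89.8 (6.82, 5.05 to 9.30) and Wfdc21 at 649 and 103 (6.32, 4.76 to 8.47). In this cluster 2 of the 3 genes were thus at 2-fold or more over sham, against 7.08% of 1809 ranked genes, on 21 OVX and 52 sham barcodes. Wfdc17 reached the 100 CPM needed for ranking in OVX alone, and this share is background and no support. Single barcodes weighed heavily here too. Of the 151 OVX UMIs of Wfdc17 in this cluster, the 5 barcodes with the most held 93.4%. Of its 511 OVX UMIs of Slpi, the 5 barcodes with the most Slpi held 86.5%, and 1 barcode held 225. After thinning, Slpi was detected in 42.9% of OVX and 42.3% of sham barcodes of the cluster. Slpi was not spread evenly over the cluster: 31 barcodes had 10 or more Slpi UMIs and 25 had none. Cd74, the invariant chain of the MHC class II complex, stood at 4.00 CPM in the 31 and at 4149 in the 25, whereas Arg1 stood at 5082 and 810 and Pf4 at 3021 and 445. The 31 were also deeper (median 10753 against 3906 UMIs), and the part of depth in this split was not tested.

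Wfdc17 and Wfdc21 lie in a stretch of chromosome 11 with chemokine genes. The 4 chemokine genes had lower OVX to sham ratios than both. In neutrophil-like barcodes Ccl9, 125354 bases from Wfdc17, stood at 285 CPM in OVX and 129 in sham (ratio 2.21), Ccl6 at 17577 and 11995 (1.47), Ccl3 at 458 and 335 (1.37) and Ccl4, the nearest of the 4, at 141 and 173 (0.813, 0.736 to 0.899). Wfdc18, which starts 2746 bases beyond the end of Wfdc17, had 11 UMIs in OVX and 0 in sham, too few to set its ratio beside theirs. Heatr6, next to Wfdc21 on its other side, stood at 46.4 and 33.5.

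The rest of the WAP-domain family was nearly silent in these cells. Of 23 family genes listed, 22 were in the table, 11 of these had no UMI in the library, and the 8 detected besides Wfdc17, Wfdc21 and Slpi had at most 13. The neutrophil serine proteases were low in neutrophil-like barcodes: Elane, which Slpi inhibits, and Prtn3 each stood at 0.246 CPM in mature barcodes, and Prtn3 at 12.2 in proliferating ones. Both were highest in the Pf4, Ppbp and Arg1 cluster, at 55.3 and 114, and the 9 UMIs of Ctsg in the library were all there. Ctsc, the protease that activates them, stood at 152 in OVX and 74.3 in sham neutrophil-like barcodes, a ratio of 2.04 (1.79 to 2.33), and was the 1 gene of that list of 5 to reach 100 CPM in neutrophil-like barcodes. Serpinb1a, a cytosolic inhibitor of the same proteases, was lowest in the mature stage when summed over pools, with 694 CPM in proliferating, 773 in granule-rich and 235 in mature barcodes, and had a ratio of 0.644 (0.604 to 0.687). In mature barcodes alone the Serpinb1a ratio was 0.801 (0.728 to 0.881). Serpinb1a was the only one of 17 other serine protease inhibitors in the table to reach 100 CPM in neutrophil-like barcodes. In stromal-like barcodes Serpine2 stood at 1213 CPM, and Serpinb2 stood at 493 in the Pf4, Ppbp and Arg1 cluster. Of 3 proteins known to bind Slpi, Grn had a ratio of 1.24 (1.12 to 1.37), Plscr1 of 1.04 and Anxa2 of 1.02. In mature barcodes alone these ratios were 1.41 (1.25 to 1.60), 1.63 (1.11 to 2.44) and 1.00 (0.938 to 1.07).

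Across 21 groups, which were the clusters split by pool that held at least 20 barcodes, the 3 genes followed different partners. The comparison covered the 3134 genes that reached 100 CPM in some group. Among the 5 genes most like Wfdc17 by Pearson's r of log2(CPM + 10) were Zfp36l1 (0.820), Pla2g7 (0.810), Oasl2 (0.800) and Ifi27l2a (0.799). Those most like Wfdc21 were Ptpn1 (0.940), Sema4a, Siglece, Fgr and Hp, and those most like Slpi were Abca1 (0.864), Csf1r, Hilpda, Irf5 and Pkm. Csf1r stood at 92.2 CPM in the Pf4, Ppbp and Arg1 cluster and at 9.34 in mature barcodes. Within that cluster it stood at 73.9 in barcodes with 10 or more Slpi UMIs and at 104 in those with none. The part of that cluster in its r was not tested. Between the 3 genes r was 0.692 for Wfdc17 with Wfdc21, 0.583 for Wfdc17 with Slpi and 0.195 for Wfdc21 with Slpi. The groups share 1 library and differ in depth, so these values describe likeness of pattern only.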

How the data were processed

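The authors aligned the reads to mm10 with Cell Ranger (6.0.1 per the labels, 6.0.0 per the file header) and deposited whole-number UMI counts for 32285 genes and 2 hashtags in 2349 barcodes. No other column was used, and the hashtag library listed as its own sample was not analysed here. Barcodes were assigned with HTODemux (Seurat 5.3.0, quantile 0.99). Clusters were made with scanpy 1.11.5 and Louvain (igraph 0.11.9) on 10000-scaled log values of 2000 variable genes without Wfdc17, Wfdc21 and Slpi, with 30 components and 15 neighbors, at the lowest resolution (1.0) with at least 7 clusters and separate proliferating and granule-rich ones. Clusters were classed by summed marker levels, with thresholds (10000 stromal, 1000 macrophage, 4000 cell cycle and 20000 granule CPM) set after these levels were seen. Clusters that met none of these thresholds and were not low in UMIs were called mature. Levels are summed UMIs per 1000000 (CPM); ratios of them have exact conditional intervals, levels exact Poisson and shares Clopper-Pearson intervals. No test was made, as each condition is 1 pool. No doublet caller was run: barcodes over both hashtag cutoffs were left out of comparisons between pools, and doublets within a pool remain. The genes and lists were chosen with earlier results of these data known. Named genes were the 3, listed genes at 50 CPM or more in a class, the 5 most alike, genes leading a cluster, and, chosen after values were seen, protein-coding neighbours within 140000 bases of Wfdc17, Cd74 and listed genes below that level. The calculation of ratios and intervals was checked on simulated summed counts drawn from the Poisson model that the intervals assume. Those counts lack the clumping of UMIs in single barcodes, so the check cannot show how well the intervals hold here. Results for 2 genes under this rule are not reported here.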

Additional observations from a re-analysis of the deposited data

Results flagged for a closer look

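Barcodes above the cutoff for both hashtags were left out of the comparison of the pools. The 63 neutrophil-like ones among them had higher summed levels of all 3 genes than sham barcodes. Wfdc17 stood at 407 CPM there (335 to 491) against 32.1 in sham and 812 in OVX. Wfdc21 stood at 2015 (1850 to 2191) against 813 and 3417, and Slpi at 371 (302 to 450) against 265 and 460. Each summed level lay between those of the pools. Of the 111 Wfdc17 UMIs in these barcodes, 52 were in 1 barcode. After thinning, which kept 48 of them, Slpi was detected in 14.6% (6.07% to 27.8%). In sham barcodes it was detected in 21.4% (18.6% to 24.4%), with overlapping intervals. Wfdc17 was detected in 14.6% against 2.80% in sham and Wfdc21 in 68.8% against 39.4%. The 108 neutrophil-like barcodes above neither cutoff held 15.1 of Wfdc17, 797 of Wfdc21 and 250 of Slpi.

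The OVX to sham ratio of Slpi was 1.70 in mature barcodes and on the other side of 1 in the Pf4, Ppbp and Arg1 cluster (0.773) and in stromal-like barcodes (0.264). These differences were not tested, since each condition was 1 pool. In the Pf4, Ppbp and Arg1 cluster 1 OVX barcode held 225 of the 511 OVX UMIs of Slpi. The stromal-like value rested on 5 barcodes, without which the levels were 14.1 CPM in OVX and 9.76 in sham.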

How the results depend on the processing

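With equal weights of barcodes the Slpi ratio turned over all barcodes (0.860 to 1.07) and in the granule-rich stage (1.13 to 0.863). It also turned in mature cluster 4 (0.985 to 1.77). The stromal-like Slpi comparison turned without 5 barcodes (57.2 against 216 CPM, then 14.1 against 9.76). The results listed next kept their direction. No paired analysis was possible because each condition was 1 pool, and no replicate could be left out. In neutrophil-like barcodes the OVX to sham ratio of Wfdc17 was 25.3. It was 18.5 when a barcode needed 80% of its hashtag UMIs from 1 hashtag. Giving both pools the same stage composition made it 21.0, and the same cluster composition 19.3. For Wfdc21 (4.20) the same settings gave 4.40, 4.58 and 3.28, and division by the median ratio of all genes gave 4.43. For Slpi (1.74) the same cluster composition in both pools gave 1.52 and equal weights of barcodes 1.62. The mature to granule-rich ratio of Wfdc17 (14.0) was 21.0 with equal weights of barcodes, 2.81 with 1000 variable genes, 9.88 with Leiden clustering, 9.99 with the 3 genes among the variable genes and 6.89 without the 2-fold genes in the clustering. That of Wfdc21 (2.34) was 1.94, 1.73, 1.88, 2.13 and 1.92 under those settings and 2.46 with 185 barcodes of few genes or many mitochondrial UMIs left out; that of Slpi (2.06) was 1.78 with 1000 variable genes. Within OVX barcodes the Wfdc21 ratio (2.28) was 2.03 by the 80% rule, 2.51 with equal weights, 1.72 with 1000 variable genes, 1.66 with Leiden and 1.72 without the 2-fold genes. Within sham barcodes (0.840) it was 0.769 with equal weights, 0.719 with 1000 variable genes, 0.719 with the 3 genes included and 0.718 without the 2-fold genes. With the 3 genes included no separate proliferating cluster formed. The stromal-like Slpi level (90.6 CPM) was 153 with equal weights and 9.52 without 5 barcodes. The same cluster composition and leaving out the 5 barcodes were chosen after seeing the data. The cause of these shifts was not tested. The other 67 recomputed values moved by less than their counting error. The early-stage Wfdc17 ratios are limited by 10 and 4 sham UMIs and by few OVX barcodes.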
